A study of Mus musculus with 8 samples.

Results

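The genes described here encode the mTOR and AMPK signalling network: the subunits of the mTOR complexes, the GTPases and inhibitors that switch mTORC1, the kinases above it, some of its substrates, and the AMPK subunits with their activating kinase. They are 38 of the 54532 genes in the deposited expression table and were listed by gene symbol as known parts of the pathway, by a rule that uses no measured value but was written with earlier results of these data known. RNA from the substantia nigra of male C57BL/6 mice was sequenced in 4 groups of 2 libraries. One group was wild type and is the control. The vector group received α-synuclein through an adeno-associated virus (AAV), the AKG group received α-ketoglutarate, and the combined group received both. The series title places α-ketoglutarate, an intermediate of the tricarboxylic acid cycle, in the diet, and the title names Parkinson's disease, in which α-synuclein forms deposits in neurons. The labels give no age, dose, duration or vector promoter, and they do not say whether control and AKG mice received an empty vector. They also do not say that the 2 libraries of a group came from separate animals, so p-values measure only the spread between these samples, which may be technical.

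mTOR is a protein kinase that works in 2 complexes. In mTORC1 it is bound to Raptor (gene Rptor) and promotes protein synthesis while restraining autophagy, and in mTORC2 it is bound to Rictor and phosphorylates AKT. Amino acids recruit mTORC1 to the lysosome through the Rag GTPases, which are anchored there by the Ragulator complex (Lamtor1 to Lamtor5), and GATOR1 switches the Rag proteins off. At the lysosome the GTPase RHEB activates mTORC1, and the TSC complex, itself inhibited by AKT, switches RHEB off. AMPK, which senses low cellular energy and is phosphorylated by LKB1 (gene Stk11), restrains mTORC1 through TSC2 and Raptor. In neurons the network ties growth and autophagy to nutrient supply. The values below are transcript levels and say nothing of kinase activity.

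The promoters of 5 members are printed because those genes stand for the 2 directions seen against control: Lamtor1, Lamtor4 and Rheb lay below it and Mtor and Tsc2 above it. Each is the 250 bases before the RefSeq transcription start, 5′ to 3′ on the gene's strand, from build GRCm38.p6. Capitals mark CACGTG, the E-box core that the lysosomal regulator TFEB and many other factors can bind, in the first 3, and CCGGAAGT, an ETS-type motif, in the last 2.
Lamtor1 (chr7:101905587-101905836, plus strand): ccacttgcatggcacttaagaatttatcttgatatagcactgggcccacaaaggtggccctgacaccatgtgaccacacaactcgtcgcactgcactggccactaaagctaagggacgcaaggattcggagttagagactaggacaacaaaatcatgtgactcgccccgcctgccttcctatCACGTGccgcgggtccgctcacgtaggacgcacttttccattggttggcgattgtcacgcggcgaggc
Lamtor4 (chr5:138255232-138255481, plus strand): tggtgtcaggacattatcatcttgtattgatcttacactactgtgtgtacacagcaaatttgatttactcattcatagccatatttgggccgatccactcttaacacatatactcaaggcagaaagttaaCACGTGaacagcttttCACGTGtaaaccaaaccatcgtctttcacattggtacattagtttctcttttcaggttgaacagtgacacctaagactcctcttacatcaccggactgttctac
Rheb (chr5:24842362-24842611, minus strand): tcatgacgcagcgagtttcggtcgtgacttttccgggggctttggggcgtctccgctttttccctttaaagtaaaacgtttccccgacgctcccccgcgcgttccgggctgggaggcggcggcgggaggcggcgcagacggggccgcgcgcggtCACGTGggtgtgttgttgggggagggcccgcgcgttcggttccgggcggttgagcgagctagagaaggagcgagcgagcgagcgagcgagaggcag
Mtor (chr4:148448332-148448581, plus strand): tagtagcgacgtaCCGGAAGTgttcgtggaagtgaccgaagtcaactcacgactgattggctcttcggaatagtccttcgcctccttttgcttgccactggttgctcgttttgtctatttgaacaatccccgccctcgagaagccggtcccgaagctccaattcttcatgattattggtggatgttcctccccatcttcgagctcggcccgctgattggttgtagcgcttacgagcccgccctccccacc
Tsc2 (chr17:24632628-24632877, minus strand): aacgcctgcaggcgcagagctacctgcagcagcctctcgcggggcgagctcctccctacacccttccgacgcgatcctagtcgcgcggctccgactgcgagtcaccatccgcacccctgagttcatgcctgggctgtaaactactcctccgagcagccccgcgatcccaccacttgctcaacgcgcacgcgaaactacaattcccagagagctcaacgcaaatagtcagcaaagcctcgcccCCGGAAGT

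The E-box core begins 68 bases before the start in Lamtor1, 120 and 104 bases before it in Lamtor4, and 96 bases before it in Rheb. The RefSeq start lies 263 bases inside the deposited span of Rheb and 67 bases outside that of Lamtor1. The ETS-type motif begins 237 bases before the start in Mtor and ends at the start in Tsc2, where it begins 8 bases before it. RefSeq gave 41 promoters for 33 of the 38 members. Over 250 bases before to 50 after the start, on both strands, CACGTG was present in 6 of the 41 promoters (also Rragb, Rragc and Tbc1d7), against 7.15% of 32851 promoters of all genes. CCGGAAGT was present in 6 of 41 (also Akt1s1, Mapkap1, Nprl2 and Rraga), against 3.89%. In the vector group Akt1s1, Mapkap1, Nprl2 and Rraga differed from control by log2 differences of -0.19, 0.013, -0.071 and -0.081. Rragb, Rragc and Tbc1d7, with CACGTG, differed by -0.097, -0.066 and -0.089. Lamtor2 and Lamtor5, at -0.32 and -0.41, had no CACGTG there. Tsc1, Depdc5 and Rptor, at 0.47, 0.46 and 0.44, were farther above control than Tsc2 (0.43) and had no CCGGAAGT there. Whether either motif goes with a direction was not tested. The GC-box core GGGCGG was present in 22 of 41, against 35.7%, and CCAAT in 14 of 41, against 37.4%. TATAAA was found in 1, of Nprl3, against 13.6%. The cAMP response element TGACGTCA was in 0 of 41, against 1.79%.

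Each library held 16544190 to 19125423 reads on genes, and the members had at least 26 reads in every library. Control library 1 stood apart, with a mean Spearman correlation of 0.926 with the other libraries against 0.971 to 0.975 for the rest. Its choroid plexus and ependyma markers summed to 8970 FPKM, where the other libraries had 70.9 to 4963 (8 of 8 markers detected). Dopamine neuron markers, which define the labelled region, summed to 156 and 166 FPKM in control against 71.2 to 100.2 elsewhere (9 of 12 at a mean of 1 FPKM or more, none at 0 throughout). Of these 9, 8 were below control and 1 above it in the vector, AKG and combined groups alike. The dopamine transporter gene Slc6a3 fell far more than the sum. It was at 24.1 and 28.5 FPKM in control, 1.43 and 3.87 in the vector, 0.80 and 0.61 in the AKG, and 4.99 and 11.9 in the combined libraries. Markers of all neurons summed to 706 FPKM in control library 1 and 909 to 1037 in the others (6 of 6 at that mean). Forebrain excitatory markers summed to 57.6 and 86.7 FPKM in control and 116 to 147 elsewhere (3 of 6 at that mean). Across genes, Spearman's rho between gene length and a library's departure from the average of the 8 was -0.52 and -0.28 in control, 0.26 and 0.45 in the vector, 0.44 and 0.10 in the AKG, and 0.47 and -0.17 in the combined libraries. The part of these differences in the member values below was not tested unless a value without them is given. In bulk tissue, fewer cells of a type and less RNA per cell cannot be told apart.

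Expression is given in FPKM, fragments scaled to gene length and library size, so levels of different genes can be set side by side. The network was expressed throughout, with mean levels over the 8 libraries from 0.979 FPKM (Eif4ebp1) to 99.5 FPKM (Rraga). Rraga, which encodes the GTPase RagA, was at 93.6 to 105 FPKM and was the most even member, with a ratio of 1.12 between its highest and lowest library. Akt1 (mean 49.6 FPKM), Rragb (49.5), Lamtor2 (48.9) and Lamtor5 (48.6) followed, and their ranges over libraries overlapped. Mtor had a mean of 10.6 FPKM, close to Lamtor3 (10.3), Rptor one of 6.77 and Rictor one of 2.61. Rhebl1, a relative of Rheb, was at 1.59. Most neighbours in this order overlapped in their library values. All but Eif4ebp1 reached the mean of 1 FPKM required for testing, so 37 of 38 members, among 13716 genes, were tested.

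**Figure D1:**
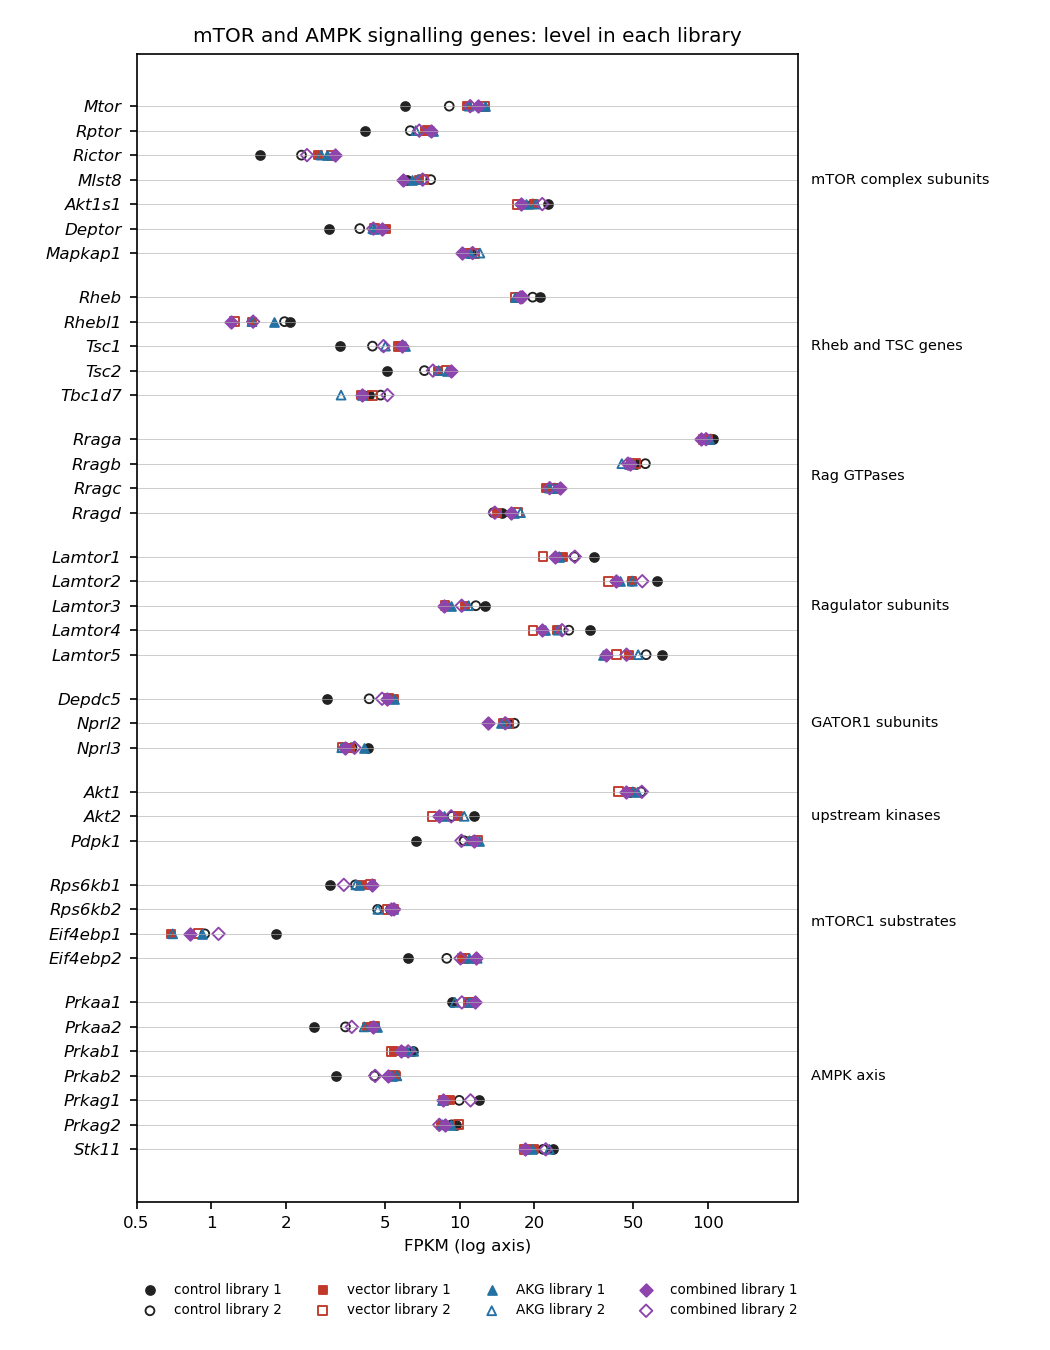
Level of each of the 38 members in each of the 8 libraries (points, FPKM, log axis), grouped by role; filled points are library 1 and open points library 2 of a group. Control library 1 lies at the low end for Mtor, Rptor, Tsc1 and Tsc2 and at the high end for the Ragulator subunits.

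Differences between groups are on the log2(FPKM + 1) scale with their standard error from limma, a linear model fitted over all genes and libraries, and p-values were adjusted over the 13716 genes (Benjamini-Hochberg, threshold 0.05). The scale understates the change of low genes. The vector libraries were set against control for the vector alone, without AKG. The members farthest above it were Mtor (0.59), Tsc1 (0.47) and Depdc5 (0.46), and those farthest below Lamtor4 (-0.45), Lamtor5 (-0.41) and Lamtor1 (-0.40). No member passed: 0 of 37 had an adjusted p under 0.05, as did 0% of all genes, and limma-voom on recovered reads called 0. Unadjusted, 14 members had a p under 0.05. Of these 10 were above control (9.27% of all genes were) and 4 below (7.54%), against 16.8% of all genes in either direction. Both vector libraries lay above both control libraries for 12 members (26.3% of all genes) and below for 13 (27.6%). The median difference over the 37 members was -0.066, with 17 above control, beside -0.0087 over all genes.

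The AKG libraries were set against control for AKG alone, without the vector in the label. Mtor (0.60) and Lamtor5 (-0.44) were at the ends of its range. Both comparisons share the control libraries, so they are not independent. Again 0 of 37 members passed, and 0.00729% of all genes did (1 gene, Th, the dopamine synthesis enzyme). Unadjusted, 11 members had a p under 0.05, 9 above control (10.5% of all genes) and 2 below (7.19%), against 17.7% in either direction. The libraries did not overlap for 13 members above (26% of all genes) and 12 below (26.4%), and voom called 0. In the combined group 0 of 37 members passed against control, as did 0% of all genes, with 0 by voom. Unadjusted, 10 members had a p under 0.05, 7 above (8.71%) and 3 below (5.19%), against 13.9% in either direction. There 11 members lay above without overlap (21.3% of all genes) and 10 below (20.5%). The medians over members were -0.042 for AKG and -0.034 for the combined group.

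**Figure D2:**
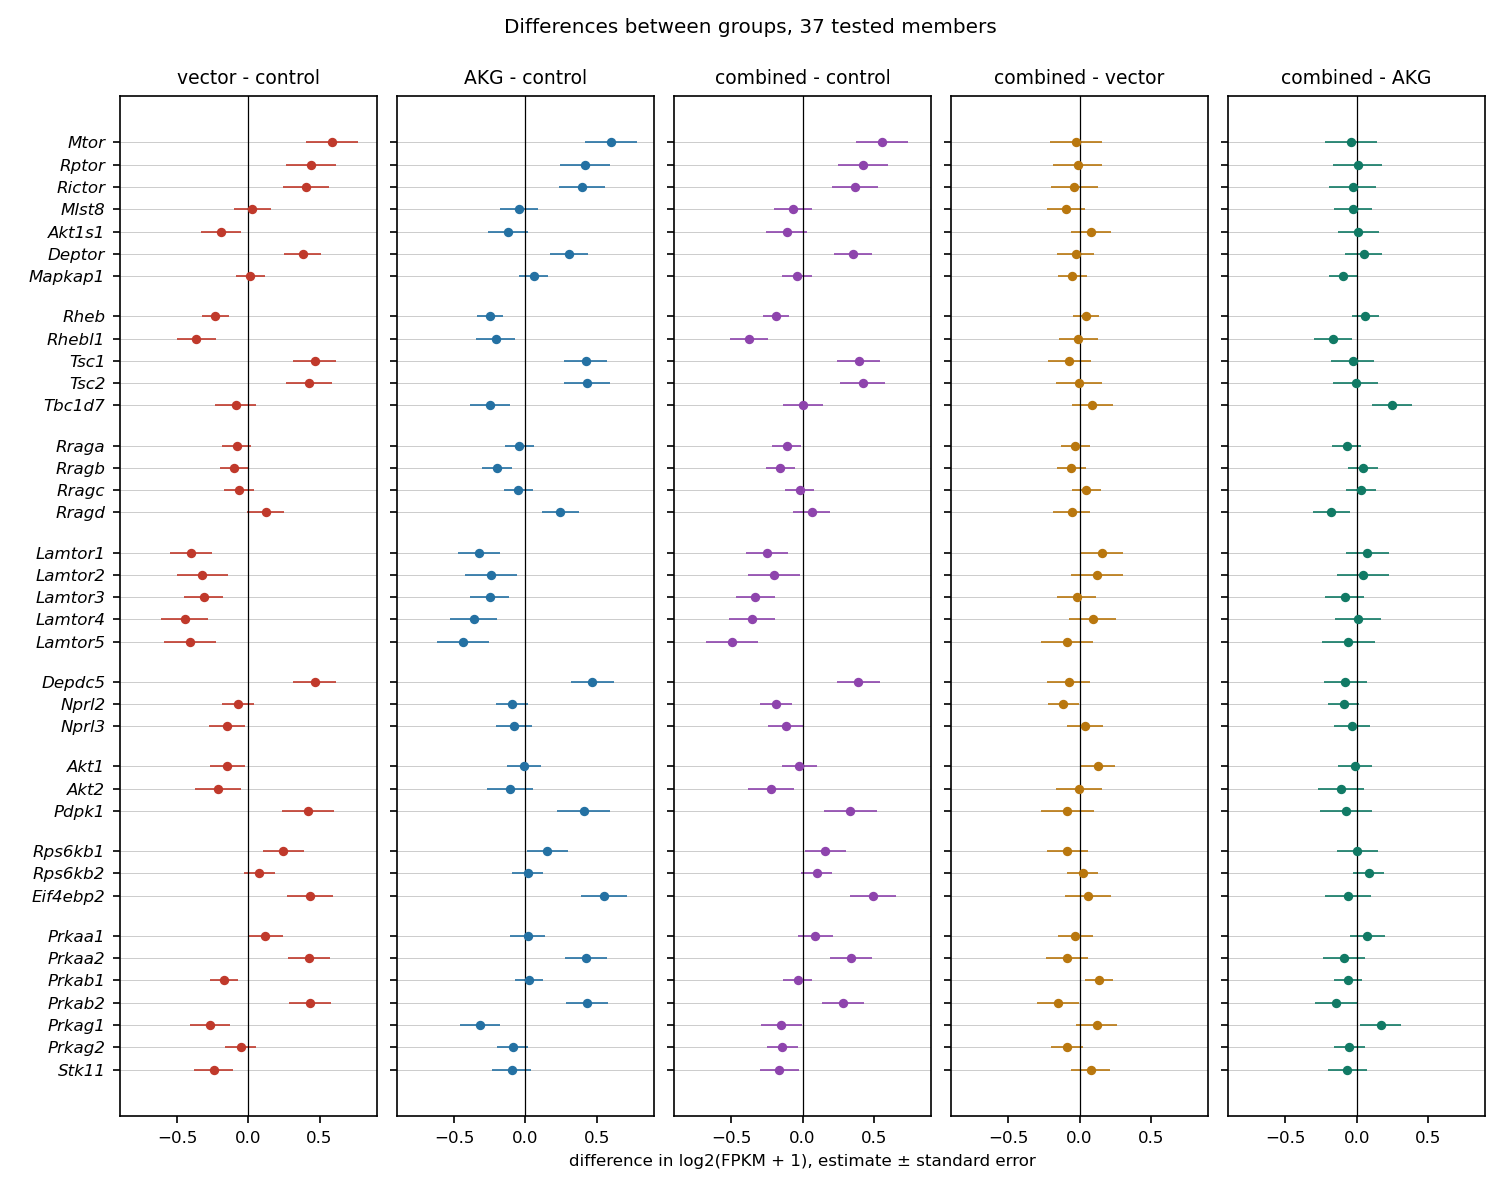
Difference in log2(FPKM + 1) for the 37 tested members (points, estimate; bars, standard error) in 5 comparisons, one per panel, with members grouped by role. Against control Mtor lies at 0.56 to 0.60 and the 5 Ragulator subunits lie below 0, while between the combined and the vector group all points lie within -0.15 and 0.15.

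Mtor, which encodes the kinase itself (chromosome 4, 148448611 to 148557683, GRCm38), was at 6.02 and 9.08 FPKM in control, 10.7 and 12.6 in the vector, 12.6 and 10.9 in the AKG, and 11.8 and 11 in the combined libraries. Both control libraries lay below the other 6. Its differences from control were 0.59 ± 0.18, 0.60 ± 0.18 and 0.56 ± 0.18 in the vector, AKG and combined groups (limma adjusted p = 0.294, 0.269 and 0.349). Without control library 1 they were 0.32, 0.34 and 0.30, and without control library 2 0.85, 0.86 and 0.82 (adjusted p = 0.0129, 0.0110 and 0.0137), so the call depends on which control library is used.

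Rptor, the scaffold that brings substrates to mTORC1 (chromosome 11, 119602905 to 119899576), was at 4.17 and 6.32 FPKM in control, 7.23 and 7.43 in the vector, 7.80 and 6.66 in the AKG, and 7.64 and 6.87 in the combined libraries. All 6 lay above both controls, by log2 differences of 0.44 ± 0.17, 0.42 ± 0.17 and 0.42 ± 0.17. These were 0.19, 0.16 and 0.17 without control library 1, and with each library's smooth trend in gene length removed 0.0997, 0.082 and 0.12. Rictor, the defining subunit of mTORC2 (chromosome 15, 6708379 to 6800401), was at 1.57 and 2.31 FPKM in control, 2.68 and 3.05 in the vector, 2.92 and 2.77 in the AKG, and 3.14 and 2.43 in the combined libraries. Its differences were 0.41 ± 0.16, 0.40 ± 0.16 and 0.37 ± 0.16, which became 0.22, 0.22 and 0.19 without control library 1 and 0.0052, 0.0062 and 0.0053 with the length trend removed. The Rptor to Rictor ratio of FPKM stayed between 2.40 and 2.83 in the 8 libraries, without a gap between control and the other groups.

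The other mTOR complex subunits did not share this pattern as a whole. Deptor, an inhibitor of both complexes, differed from control by 0.38, 0.31 and 0.35, and by 0.22, 0.15 and 0.20 without control library 1. Mlst8, shared by both complexes, differed by 0.029, -0.043 and -0.068. Mapkap1 (the mTORC2 subunit SIN1) differed by 0.013, 0.057 and -0.038, and Akt1s1 (the mTORC1 inhibitor PRAS40) by -0.19, -0.12 and -0.11. The role median over 7 genes was 0.38 in the vector, 0.31 in the AKG and 0.35 in the combined group, and 0.0997, 0.058 and 0.0053 with the length trend removed. The Mtor to Mlst8 ratio of FPKM was 0.983 and 1.19 in control and 1.55 to 1.99 elsewhere. Of the 4435 Mlst8 exon bases in GENCODE, 22.5% overlap another gene, but its deposited length is 3366 bases, so the share for the counted exons may differ. No source used here names the strand setting of the counting.

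Rheb (chromosome 5, 24802823 to 24842624), the direct activator of mTORC1, was at 21.0 and 19.7 FPKM in control, 17.5 and 16.8 in the vector, 16.6 and 17.3 in the AKG, and 17.6 and 17.9 in the combined libraries. Both controls lay above all 6 others, and the libraries within each group were close. The differences from control were -0.23 ± 0.093, -0.25 ± 0.093 and -0.19 ± 0.093 (limma adjusted p = 0.294, 0.270 and 0.384). Without control library 1 they were -0.19, -0.20 and -0.14. Its direction is opposite to that of most long genes: at 7721 bases Rheb is one of the longer members, and with the length trend removed its differences were -0.41, -0.43 and -0.36 (adjusted p = 0.394, 0.308 and 0.399).

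Tsc1 and Tsc2 encode the pair of proteins that switches RHEB off. Tsc1 (chromosome 2, 28641228 to 28691167) was at 3.31 and 4.45 FPKM in control, 5.73 and 5.67 in the vector, 6.01 and 5.02 in the AKG, and 5.84 and 4.93 in the combined libraries. Tsc2 (chromosome 17, 24595816 to 24632630) was at 5.11 and 7.21 in control, 8.17 and 8.87 in the vector, 8.87 and 8.22 in the AKG, and 9.23 and 7.80 in the combined libraries. For both genes the 2 control libraries were the lowest of the 8. The differences from control were 0.47 ± 0.15, 0.42 ± 0.15 and 0.39 ± 0.15 for Tsc1 and 0.43 ± 0.16, 0.43 ± 0.16 and 0.42 ± 0.16 for Tsc2, none with an adjusted p under 0.270. They were, with control library 1 left out, 0.30, 0.25 and 0.22 for Tsc1 and 0.21, 0.22 and 0.21 for Tsc2. With the length trend removed they were 0.16, 0.12 and 0.12 for Tsc1 and 0.18, 0.18 and 0.20 for Tsc2. The Tsc2 to Tsc1 ratio of FPKM kept between 1.43 and 1.64. The Rheb to Tsc2 ratio was 4.11 and 2.73 in control and 1.87 to 2.29 in the other 6 libraries, so the controls did not overlap with them, but its value in control library 1 was the more distant.

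The remaining genes of this role were another TSC subunit and a RHEB relative. Tbc1d7, which stabilises the TSC complex, differed from control by -0.089, -0.25 and 0.00081. Rhebl1 (chromosome 15, 98877778 to 98894540) was at 2.08 and 1.97 FPKM in control, 1.46 and 1.24 in the vector, 1.79 and 1.46 in the AKG, and 1.20 and 1.47 in the combined libraries, with both controls on top. Its differences were -0.36 ± 0.14, -0.21 ± 0.14 and -0.37 ± 0.14, from only 64 to 122 reads a library. Other genes overlap 18% of its exon bases on the same strand, and reads shared between Rheb and Rhebl1 cannot be told apart.

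The Rag GTPases, which bind mTORC1 as pairs of RagA or RagB with RagC or RagD, were nearly level. Rraga differed from control by -0.081, -0.042 and -0.11, Rragb by -0.097, -0.20 and -0.16, and Rragc by -0.066, -0.051 and -0.020. Rragd, the one member of this role above control, differed by 0.12, 0.25 and 0.065. All 4 had an unadjusted p over 0.05 in each of the 3 comparisons. Summed FPKM of Rraga and Rragb was 156 and 158 in control and 142 to 149 elsewhere. Rraga exceeded Rragb 1.83 to 2.24 times, and Rragc exceeded Rragd 1.31 to 1.76 times, in all 8 libraries. Rragd took 37.4% and 36.2% of the RagC and RagD sum in control and 37.6% to 43.3% elsewhere.

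All 5 Ragulator subunits had group means below control in the 3 comparisons. Lamtor5 (chromosome 3, 107278858 to 107284082) was at 65.4 and 56.3 FPKM in control, 48.1 and 42.9 in the vector, 37.8 and 52.3 in the AKG, and 38.8 and 46.9 in the combined libraries, a gap to control in each group. Lamtor1 (chromosome 7, 101905904 to 101926675), the lipid-anchored subunit that holds the complex to the lysosome, was at 34.7 and 29.0 in control, 26 and 21.6 in the vector, 25.1 and 25.2 in the AKG, and 24.2 and 29.1 in the combined libraries, the last of which overlaps control. Their differences were -0.41 ± 0.18, -0.44 ± 0.18 and -0.50 ± 0.18 for Lamtor5 and -0.40 ± 0.15, -0.33 ± 0.15 and -0.25 ± 0.15 for Lamtor1. With the length trend removed those of Lamtor5 were -0.12, -0.18 and -0.26, and without control library 1 those of Lamtor1 were -0.28, -0.20 and -0.12. The others ranged from -0.45 (Lamtor4, vector group) to -0.20 (Lamtor2, combined group), and 0 of 5 were called. Lamtor2 overlapped control in the AKG and combined groups.

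As a complex, the summed Ragulator FPKM was 208 and 174 in control, 158 and 133 in the vector, 138 and 163 in the AKG, and 136 and 166 in the combined libraries. Both controls lay above the other 6, control library 1 by the wider gap. The role median was -0.40, -0.33 and -0.33, which became -0.28, -0.20 and -0.22 without control library 1 and -0.17, -0.18 and -0.19 with the length trend removed. Lamtor2, Lamtor4 and Lamtor5 are among the shortest members, at 1218, 1302 and 884 bases. Lamtor1 and Lamtor3, at 3215 and 4151 bases, lie nearer the middle. The exons of Lamtor1 overlap another gene over 18.7% of their bases, and those of the other 4 subunits do not.

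GATOR1, the complex that switches RagA and RagB off, was split. Depdc5, its largest subunit (chromosome 5, 32863701 to 32994236), was at 2.92 and 4.32 FPKM in control, 5.46 and 5.16 in the vector, 5.45 and 5.20 in the AKG, and 5.11 and 4.87 in the combined libraries, all 6 above both controls. Its differences were 0.46 ± 0.15, 0.47 ± 0.15 and 0.39 ± 0.15, which became 0.25, 0.25 and 0.17 without control library 1 and 0.16, 0.17 and 0.12 with the length trend removed. Nprl2 (chromosome 9, 107542226 to 107545706) was at 15.7 and 16.6 FPKM in control, 14.9 and 15.7 in the vector, 14.6 and 15.5 in the AKG, and 13 and 15.3 in the combined libraries, with differences of -0.071, -0.095 and -0.19. Nprl3 differed by -0.15, -0.078 and -0.11, with another gene over 17.7% of its exon bases.

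Above mTOR, Akt1 (chromosome 12, 112653821 to 112674884), the kinase that inhibits TSC2, was at 48.7 and 53.7 FPKM in control, 48.7 and 43.5 in the vector, 51.8 and 49.8 in the AKG, and 46.9 and 54.1 in the combined libraries. The groups overlapped in each comparison, with differences of -0.15, -0.010 and -0.022. Akt2 differed by -0.21, -0.11 and -0.22. Pdpk1, which phosphorylates AKT, differed by 0.42 ± 0.19, 0.41 ± 0.19 and 0.33 ± 0.19. Its first control library was low, at 6.67 FPKM, while the second, at 10.4, was close to the 10.2 to 11.9 of the other groups. Without the first the differences were 0.13, 0.12 and 0.047.

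Of the mTORC1 substrates, Eif4ebp2 (chromosome 10, 61428491 to 61452661), a repressor of cap-dependent translation and the main 4E-BP of the brain, was at 6.17 and 8.87 FPKM in control, 10.2 and 10.5 in the vector, 10.9 and 11.8 in the AKG, and 11.6 and 10.1 in the combined libraries. Both controls were below the other 6. The differences were 0.43 ± 0.16, 0.55 ± 0.16 and 0.49 ± 0.16 (limma adjusted p = 0.294, 0.269 and 0.349). They were 0.34, 0.45 and 0.40 with the length trend removed and 0.20, 0.32 and 0.26 without control library 1.

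Its relative Eif4ebp1 (chromosome 8, 27260329 to 27276674) was listed at 1.82 and 0.941 FPKM in control, 0.691 and 0.885 in the vector, 0.914 and 0.699 in the AKG, and 0.820 and 1.07 in the combined libraries. Only control library 1 was apart, at 77 reads against 26 to 42 in the others, and the gene was below the level for testing. Rps6kb1 (chromosome 11, 86498871 to 86544805), the S6 kinase that phosphorylates ribosomal protein S6, was at 3.0 and 3.80 FPKM in control, 4.02 and 4.39 in the vector, 3.93 and 3.82 in the AKG, and 4.42 and 3.42 in the combined libraries. Its differences were 0.25 ± 0.14, 0.15 ± 0.14 and 0.16 ± 0.14, or 0.11, 0.022 and 0.027 without control library 1, and the combined libraries overlapped control. Rps6kb2 differed by 0.078, 0.018 and 0.10. Other genes overlap 23.7% of its 5167 exon bases in GENCODE, but its deposited length is 2445 bases, so the share for the counted exons may differ.

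AMPK is built of a catalytic α, a scaffold β and a nucleotide-binding γ subunit, each with alternative genes. The estimates of both α genes were above control and those of both γ genes below it in each comparison. The β genes differed in direction in the vector and combined groups. Prkaa2 (α2, chromosome 4, 105029874 to 105109890) was at 2.59 and 3.47 FPKM in control, 4.22 and 4.55 in the vector, 4.67 and 4.13 in the AKG, and 4.49 and 3.68 in the combined libraries. All 6 were above both controls, by 0.43 ± 0.15, 0.43 ± 0.15 and 0.34 ± 0.15. The differences were 0.27, 0.27 and 0.18 without control library 1, and with the length trend removed 0.23, 0.23 and 0.16. Prkaa1 (α1, chromosome 15, 5143861 to 5181899) was at 9.31 and 11 in control, 11.3 and 10.9 in the vector, 10.9 and 9.56 in the AKG, and 11.5 and 10.2 in the combined libraries, overlapping control in each group, with differences of 0.12, 0.015 and 0.091.

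Prkab2 (β2, chromosome 3, 97658193 to 97673812) was at 3.17 and 4.54 FPKM in control, 5.52 and 5.47 in the vector, 5.36 and 5.58 in the AKG, and 5.16 and 4.56 in the combined libraries. It lay above both controls in the 6 libraries, by 0.43 ± 0.15, 0.43 ± 0.15 and 0.29 ± 0.15, although combined library 2 exceeded control library 2 by little. With control library 1 left out the differences were 0.23, 0.22 and 0.081. Prkab1 (β1, chromosome 5, 116013586 to 116024508) was at 6.5 and 5.87 in control, 5.42 and 5.32 in the vector, 6.11 and 6.53 in the AKG, and 5.82 and 6.20 in the combined libraries. Its differences were -0.17, 0.027 and -0.034. Prkag1 differed by -0.27, -0.32 and -0.15 (other genes overlap 43.7% of its exon bases) and Prkag2 by -0.053, -0.089 and -0.14.

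Within a library, α2 was 21.8% and 24.01% of the summed Prkaa1 and Prkaa2 FPKM in control, 27.2% and 29.5% in the vector, 29.9% and 30.1% in the AKG, and 28.1% and 26.5% in the combined libraries. Both controls were the lowest. β2 was 32.8% and 43.6% of the β sum in control, 50.4% and 50.7% in the vector, 46.7% and 46.1% in the AKG, and 47.0% and 42.4% in the combined libraries, where the combined group overlapped control. γ2 was 44.8% and 48.2% of the γ sum in control and 42.8% to 53.5% elsewhere, with overlap in the vector and combined groups. In each pair the mean share of the longer gene was higher outside control than in control. The lengths are 7969 against 4655 bases for α, 5096 against 3066 for β and 6480 against 2175 for γ. Stk11 (LKB1, chromosome 10, 80115803 to 80130682) was at 23.8 and 21.7 FPKM in control, 19.98 and 18.2 in the vector, 19.6 and 22.9 in the AKG, and 18.3 and 22.2 in the combined libraries, with differences of -0.24 ± 0.14, -0.097 ± 0.14 and -0.16 ± 0.14. Only the vector libraries were clear of control.

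**Figure D3:**
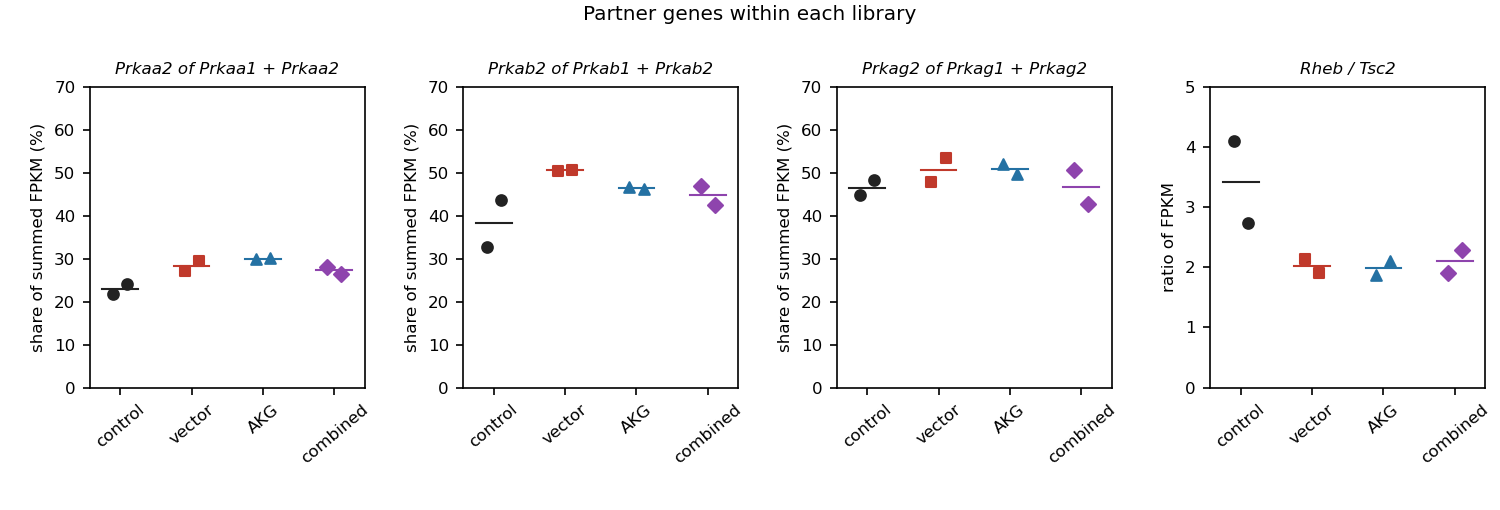
Share of the longer gene in the summed FPKM of each AMPK subunit pair (%, first 3 panels) and ratio of Rheb to Tsc2 FPKM (last panel) in each library; points are libraries and the short lines group means. The α2 share is lowest and the Rheb to Tsc2 ratio highest in the 2 control libraries.

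Gene length went with the direction of the members. The 18 tested members longer than 4580 bases had a median difference from control of 0.41, 0.40 and 0.34 in the vector, AKG and combined groups, with 14 of 18 above control in each. Over all tested genes of that length the medians were 0.16, 0.14 and 0.13, with 74.6%, 73.0% and 72.9% above control. The 19 members of 4580 bases or fewer had medians of -0.17, -0.12 and -0.15, beside -0.14, -0.13 and -0.11 for all genes of that length. Across the 37 members, Spearman's rho between length and difference was 0.73, 0.70 and 0.71, and over all tested genes 0.56, 0.53 and 0.51. These describe genes that share the same libraries. The long members that lay below control in all 3 comparisons were Rheb, Nprl3, Akt2 and Prkag2.

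**Figure D4:**
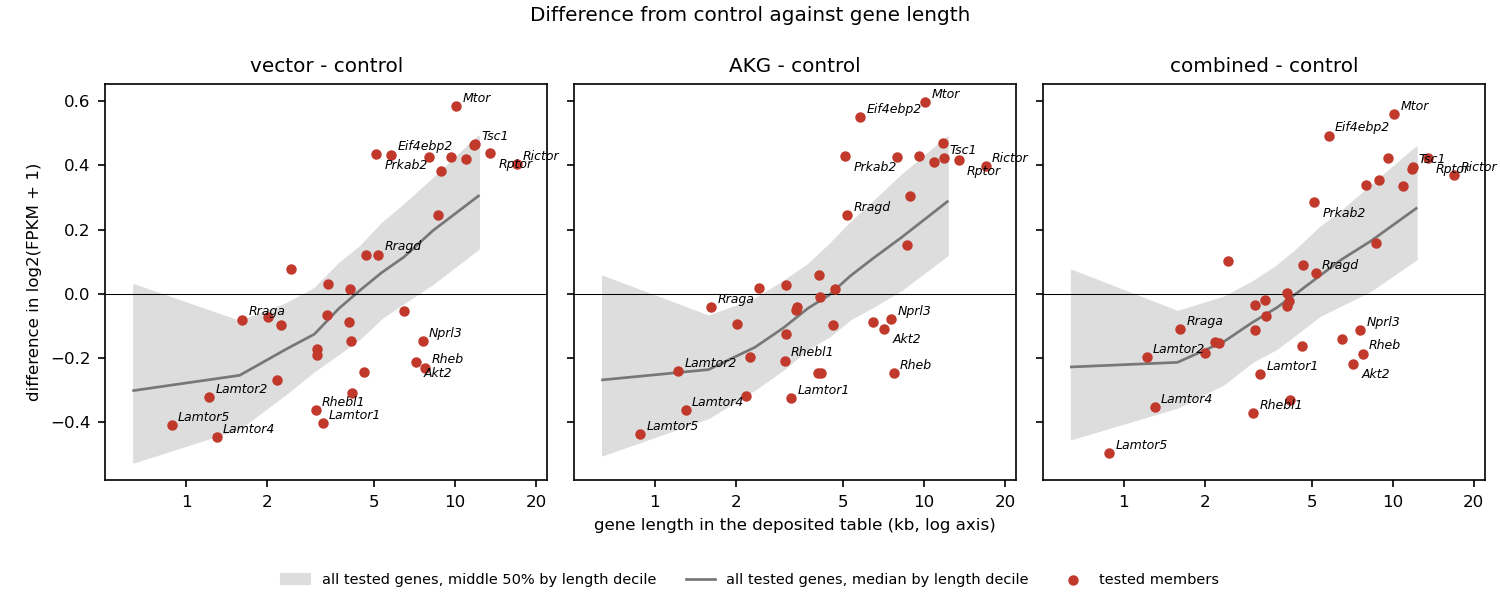
Difference from control in log2(FPKM + 1) against gene length (kb, log axis) for the 37 tested members (red points), with the median (line) and middle 50% (band) of all tested genes in 10 length classes. Among the members outside the band at their length are Mtor, Eif4ebp2 and Prkab2 above it and Rheb, Akt2 and Nprl3 below it. Rptor and Rictor are longer than the middle of the longest class, where the band ends.

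With the length trend removed, 7 members in the vector group had an unadjusted limma p under 0.05 (12.6% of all genes), 4 with AKG alone (15%) and 5 in the combined libraries (12.3%), and 0 passed adjustment. Mtor, Rheb and Eif4ebp2 were among them in all 3 comparisons, and Prkab2 in the first 2. Without control library 1, 0 members in the vector group (5.43% of all genes), 3 with AKG alone (7.27%: Mtor, Rragb, Eif4ebp2) and 0 with both (5.63%) had an unadjusted p under 0.05. Without control library 2, limma called 11 members in the vector group (24.5% of all genes in either direction), 11 with AKG alone (24.6%) and 9 with both (21.3%), all above control. They include Mtor, Rptor, Deptor, Tsc1, Tsc2, Depdc5, Pdpk1, Eif4ebp2 and Prkab2 each time. The shares of all genes called without control library 2 also count genes below control. The shares called above control alone, which match the direction of these members, were smaller. A fit without one control library assumes that the other varies like the remaining groups.

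The combined group was compared with the vector group to ask what AKG changed in mice carrying the vector. The members were close to level. Differences ranged from -0.15 to 0.15, 0 of 37 had an adjusted p under 0.05 (0% of all genes), and 0 had an unadjusted p under 0.05 (1.36%), with 0 calls by voom. The libraries did not overlap for 2 members above the vector group (12.9% of all genes), Rheb and Prkab1, and for 3 below it (11.4%), Rragb, Depdc5 and Prkab2. The smallest p belonged to Prkab1 (0.14 ± 0.0997), Lamtor1 (0.15 ± 0.15) and Nprl2 (-0.11 ± 0.11). Mtor differed by -0.025 with a 95% interval of -0.46 to 0.41, and Rheb by 0.044 with one of -0.18 to 0.26. Over the 37 members the intervals reached from -0.52 to 0.55, so differences of that size cannot be told from none. The intervals pool the spread of all 4 groups, so the distance between the control libraries enters them although control is not compared here. For Mtor the SD was 2.16 FPKM in control, 1.29 in the vector and 0.55 in the combined group.

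Against the AKG group, the combined group had 0 of 37 members with an adjusted p under 0.05 (0% of all genes) and 0 with an unadjusted p under 0.05 (1.14%), and voom called 0. Only Rheb lay above without overlap (11.3% of all genes), while Rraga, Rragd, Depdc5 and Prkab2 lay below (11.8%). The smallest p belonged to Tbc1d7, at 4.04 and 3.33 FPKM in the AKG and 4.04 and 5.12 in the combined libraries (0.25 ± 0.14), Rragd, at 16.5 and 17.6 against 16.1 and 13.8 FPKM (-0.18 ± 0.13), and Rhebl1 (-0.17 ± 0.14). Differences ranged from -0.18 to 0.25, and Mtor differed by -0.037 with a 95% interval of -0.47 to 0.39.

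The interaction asks whether AKG's difference was the same with and without the vector. It was negative for 14 of the 18 members longer than 4580 bases, Mtor (-0.62 ± 0.26) among them, and positive for all 5 Ragulator subunits (0.23 to 0.48), which are shorter. Over all genes it was above 0 for 26.1% of the longer and 69.7% of the shorter ones. The count of longer members is near that background. Of the 19 shorter members 16 were above 0. The control libraries enter the interaction as well. Of 37 members 0 passed (0% of all genes), and voom also called 0. The shares of all genes that follow count both directions, while each member named with them was below 0. Unadjusted, 4 had a p under 0.05 (7.28% of all genes): Prkab2 (-0.58 ± 0.21), Depdc5 (-0.54 ± 0.21), Prkaa2 (-0.52 ± 0.21) and Mtor, each with an adjusted p of 0.537. Without control library 1 there was 1, Prkab2 at -0.37 (4.75%), and without control library 2 limma called 5 (9.98%): Mtor, Depdc5, Pdpk1, Eif4ebp2 and Prkab2.

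Beyond the members, 113 other genes of the network in 7 lists were followed, 108 of them tested. None was called in any of the 6 comparisons. At an unadjusted limma p under 0.05, 19 were above and 4 below control in the vector group (9.27% and 7.54% of all genes). With AKG alone these counts were 20 and 6 (10.5% and 7.19%), and with both agents 13 and 1 (8.71% and 5.19%). The medians over the 108 genes were 0.11, 0.072 and 0.066. Of the other upstream genes 16 of 20 were above control in the vector group, with a median of 0.27, where 48.8% of all genes were above. Among all tested genes longer than 4580 bases that share was 74.6%. The insulin-like growth factor receptor Igf1r differed by 0.59 ± 0.16, or 0.19 with the length trend removed, and the adaptor Irs2 by 0.64 ± 0.19, or 0.37 without control library 1. Of the other mTORC1 effectors 12 of 21 were above, with the autophagy kinase Ulk1 at 0.51 ± 0.16 and Rps6, the ribosomal protein phosphorylated by S6 kinase, at -0.60 ± 0.22. Both were nearer 0 without control library 1, at 0.34 and -0.27. The first control library had the highest Rps6 level, 439 FPKM, the second 277, and the others 222 to 269.5. Among the other AMPK axis genes 13 of 16 were above, with Ppargc1a, a coactivator of mitochondrial genes, at 0.36 ± 0.13, or 0.18 without control library 1. The other mTOR complex genes, such as the assembly factor Tti1 (0.14 ± 0.11), were all 5 above with a median of 0.075.

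The amino acid sensing list held the gene with the smallest p of the 108 in the vector and AKG groups against control. Sesn2, a leucine sensor that restrains mTORC1, was at 4.05 and 4.29 FPKM in control, 5.69 and 5.54 in the vector, 6.04 and 5.86 in the AKG, and 4.95 and 4.86 in the combined libraries. No 2 groups overlapped, and the combined libraries lay between control and the groups with a single agent. Its difference was 0.36 ± 0.092 in the vector and 0.43 ± 0.092 in the AKG group, and -0.24 ± 0.092 between the combined and the AKG group. The interaction was -0.59 ± 0.13, with an adjusted p of 0.537, and -0.66 with the length trend removed.

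Of 14 sterol and lipid genes driven by SREBP, a transcription factor that mTORC1 promotes, 8 were above control in the vector group (median 0.12). In the combined group 6 were above control and 8 below it (median -0.042). Between these 2 groups all 14 were lower in the combined group, with a median of -0.13 beside 0.0060 over all genes, of which 52.3% were higher. Of the 14 genes, 8 had both combined libraries below both vector libraries (11.4% of all genes did), and 0 had an unadjusted limma p under 0.05. In the same comparison 8 of 8 oligodendrocyte markers lay above the vector group (median 0.25), with summed levels of 1222 and 1447 FPKM in the vector and 1289 and 2021 in the combined libraries. Of the microglia markers 7 of 8 did (median 0.16), with sums of 177 and 204 against 204 and 262 FPKM. None of these markers was at 0 throughout, and their part in the lower SREBP genes was not tested. Sqle, the squalene epoxidase, was at 15.0 and 15.7 FPKM in the vector and 14.2 and 12.9 in the combined libraries (-0.17 ± 0.10). Fdft1, the squalene synthase, was at 29.9 and 29.8 against 25.98 and 26.6 FPKM (-0.18 ± 0.098). Genes driven by ATF4, a transcription factor of amino acid supply, had medians of -0.14, -0.12 and -0.034 against control. In the vector group 5 of 13 lay above control and 8 below. There Ddit3 was at -0.36 ± 0.12, or -0.12 with the length trend removed. Phgdh, the first enzyme of serine synthesis, was at -0.39 ± 0.17. It was at -0.26 without control library 1 and -0.23 with the length trend removed.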

How the data were processed

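The authors deposited 1 table of FPKM values for 8 libraries, with gene symbol, coordinates and length, per the file headers. Per the labels' protocols, a SMARTer kit for mRNA was used. GRCm38 and mm10 are named in the submitters' processing notes. For the aligner, counting tool, strand setting and scaling, nothing is given in the sources used here. Multiplied by length, 100% of deposited FPKM values were whole reads (within 0.01 of a read). The effective library size was 0.984 to 1.05 times the recovered total.

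Members were matched by symbol. The members and gene lists were chosen with earlier results of these data known. The 13716 genes averaging 1 FPKM or more entered limma 3.58.1 (R 4.3.3) as log2(FPKM + 1), with 1 mean per group, eBayes with a trend, two-sided tests and 4 residual degrees of freedom. P-values were adjusted over all tested genes. Differences carry limma standard errors, which pool the spread of all groups. Every library's value is given for a core of members and for the 3 with the smallest p in each comparison; a few others were added after their values were seen. From the other lists up to 2 genes per comparison were eligible and part of them is printed. Whether libraries with the same number deviate together was checked: the correlations ranged from -0.32 to 0.34, so no pairing was used. The smooth length trend is a spline with 5 degrees of freedom per library. Overlapping exons come from GENCODE and promoters from RefSeq (GRCm38.p6). Closely related genes, such as Akt1 and Akt2, may share reads. Tables and figures were made with matplotlib 3.10.9, pandas 2.3.3 and numpy 2.4.6 under Python 3.11.15. The fit was tested on simulated data. Alternatives were another filter, pseudocount, scaling, block, trend, weighting, gene set or tool, and leaving out each library.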

Additional observations from a re-analysis of the deposited data

How the results depend on the processing

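Groups of 2 and control library 1 limit every comparison with control. No member was called in any comparison by any alternative except without control library 2. Leaving out each library in turn gave 0 to 11 called members in the vector and AKG groups, 0 to 9 in the combined group against control and 0 to 5 in the interaction. At an unadjusted p under 0.05 it gave 0 to 17, 1 to 16, 0 to 15 and 0 to 15, and between the combined and the AKG group 0 to 1. The vector count fell from 14 to 4 and 1 without vector library 1 or 2 and to 0 without control library 1. The AKG count fell to 1 and 4 without AKG library 1 or 2, to 3 without control library 1, and to 7 without either vector library. The combined count fell to 0 without combined or control library 1 and to 5 without any 1 vector or AKG library. The interaction count was 0 or 1 in 6 of these fits, 5 without combined library 1 and 15 without control library 2. The members' median ranged from -0.066 to -0.0028, -0.050 to -0.015 and -0.11 to 0.012 against control. Other counts at an unadjusted p under 0.05 (14, 11, 10 and 4 as reported) moved as follows for the vector, AKG and combined groups and the interaction. A minimum of 5 FPKM, which tests fewer genes, left 8 and 7 in the first 2 and 1 in the interaction. With the length trend removed there were 7, 4, 5 and 2, and the vector median became 0.027. Library weights left 7 in the AKG and 3 in the combined group. Fitting only the groups compared left 4, 2 and 2. The cause of these shifts was not tested.

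The replicate number as a block left 10, 7, 4 and 1, and the block with the length trend removed 5, 4, 3 and 2, with a vector median of 0.027. The numbers do not pair the libraries, and 0 members were called under the block. With the length trend removed Rps6kb1 became -0.065 in the AKG and -0.040 in the combined group against control, and Prkaa1 -0.025 in the AKG group, also under the block. Quantile normalization turned Prkaa1 to -0.0085 in the AKG group and Akt1 to 0.065 in the AKG and 0.042 in the combined group. Leaving out 1 library moved Prkaa1 between -0.093 and 0.12 (below 0 also at -0.073) in the AKG and between -0.017 and 0.20 in the combined group. It moved Akt1 between -0.080 and 0.059 (above 0 also at 0.018) in the AKG and between -0.12 and 0.079 (above 0 also at 0.048) in the combined group, and Stk11 between -0.21 and 0.013 in the AKG group. None of these was called under any of them.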
